A study of Mus musculus with 8 samples.

Results

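The genes described here carry the signals by which bone-forming stromal cells drive the formation of osteoclasts, the bone-resorbing cells of the myeloid lineage, together with the receptors and osteoclast genes that answer them. They are 10 genes taken by symbol (Csf1, Il34, Csf1r, Tnfsf11, Tnfrsf11a, Tnfrsf11b, Nfatc1, Acp5, Calcr and Dcstamp) out of the 51822 gene symbols measured, and all 10 were found. Mouse osteoblastic cells were profiled by RNA sequencing in an osteogenic medium of alpha-MEM with serum, ascorbic acid, dexamethasone and β-glycerophosphate, which all groups shared. The control groups received the DMSO vehicle and the LAMZ groups received locamidazole (LAMZ, an aminoindazole derivative) at 1 μmol·L−1, and each was harvested on day 7 and day 14 with 2 libraries, which makes 4 groups and 8 libraries. The sample labels name MC3T3-E1 cells, a clonal osteoblastic line, whereas the study's methods name cultured calvarial cells. The labels do not say whether replicates were separate cultures, so the spread between them may be technical.

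Stromal cells and osteoblasts secrete CSF1 (M-CSF) and, in some tissues, IL-34, which both bind CSF1R on monocytes, macrophages and osteoclast precursors and keep these cells alive. They also make RANKL (Tnfsf11), which binds RANK (Tnfrsf11a) on the precursors and turns on the transcription factor NFATc1 and its targets, and OPG (Tnfrsf11b), a secreted decoy receptor that captures RANKL. The RANKL to OPG ratio is widely used as a measure of the osteoclast-forming signal of bone stroma.

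Expression was given as RPKM (reads relative to gene length and library depth), with no scaling between libraries stated. The RPKM values of 26987 symbols, the 10 genes among them, went back to whole reads at 3463538 to 5832101 mapped reads per library. The read counts given here are inferred in this way, for Csf1r, Nfatc1 and Dcstamp with a fitted gene length. The 12514 genes that reached an RPKM of 1 in 2 or more libraries, 7 of the 10 among them, were tested on log2(RPKM + 1) by limma, and a change was called at an adjusted p under 0.05. At day 7, 12.8% of all tested genes passed (8.49% lower and 4.35% higher with LAMZ), against 4 of the 7 here (Csf1, Il34 and Csf1r lower and Tnfrsf11b higher). At day 14, 23.0% of all tested genes passed (16.0% lower and 6.96% higher), against 4 of the 7 (Csf1, Il34 and Csf1r lower and Tnfsf11 higher). From day 7 to day 14, 4.86% passed in control (2.46% higher and 2.40% lower), among the 7 only Csf1r, and 14.4% with LAMZ (5.10% higher and 9.26% lower), among the 7 only Csf1 and Tnfsf11. The difference of the LAMZ effect between the days passed in 0.623% (0.312% in each direction) and in none of the 7. The 10 genes were chosen with earlier results of these data known. In addition, Csf1r reached the filter only through control libraries and Tnfsf11 only through LAMZ libraries. The shares over all tested genes are therefore no fair standard for the counts among the 7. The balance of directions depended on the scaling. Of the genes called, 33.9% were higher at day 7 and 30.3% at day 14, against 53.5% and 56.3% after the libraries were centred on their medians and 8.69% and 8.16% after rescaling to equal sums. The median log2 fold change of all tested genes was −0.080 and −0.15, and these scalings moved it to 0.033 and 0.043, and to −0.31 and −0.43. Osteoblast genes were abundant, with Col1a1 at 4354 to 9964 RPKM. All 21 macrophage markers that could be matched were also detected in all 4 control libraries, at a summed RPKM of 509.7 to 1252, whereas in the LAMZ libraries the sum was 37.7 to 45.5 and 11 to 13 of the 21 were at 0. Most of that remainder was Cyba (28.0 to 37.8 RPKM), which many cell types express. Macrophage markers would not be expected from a clonal osteoblastic line such as the labels name. No cell type was assigned, and the make-up of the cultures was not tested.

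RefSeq start-site windows on GRCm38.p6 were available for 5 of the 10 genes. Shown are the 250 bases before the start for the stromal ligands Csf1 and Tnfsf11, which moved in opposite directions at day 14, for the receptor gene Tnfrsf11a, whose reads were nearly absent with LAMZ, and for 1 of the 3 start sites of Acp5, an osteoclast gene that did not pass the test. Each is written 5′ to 3′ on the strand of its gene, and capitals mark matches to GAGGAA (core bound by PU.1), TGGAAA (core bound by NFAT) or CATGTG (E-box bound by MITF) on either strand.
Csf1 (chr3:107760470-107760719, minus strand): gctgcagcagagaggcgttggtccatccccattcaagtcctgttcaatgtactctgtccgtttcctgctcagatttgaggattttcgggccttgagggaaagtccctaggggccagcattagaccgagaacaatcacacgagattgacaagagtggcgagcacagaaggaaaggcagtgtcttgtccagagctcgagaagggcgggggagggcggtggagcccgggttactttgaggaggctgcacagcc
Tnfsf11 (chr14:78308044-78308293, minus strand): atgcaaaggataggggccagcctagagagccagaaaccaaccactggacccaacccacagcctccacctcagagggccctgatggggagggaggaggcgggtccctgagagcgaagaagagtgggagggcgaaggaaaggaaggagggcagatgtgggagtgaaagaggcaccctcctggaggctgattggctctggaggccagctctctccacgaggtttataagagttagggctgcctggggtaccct
Tnfrsf11a (chr1:105780473-105780722, plus strand): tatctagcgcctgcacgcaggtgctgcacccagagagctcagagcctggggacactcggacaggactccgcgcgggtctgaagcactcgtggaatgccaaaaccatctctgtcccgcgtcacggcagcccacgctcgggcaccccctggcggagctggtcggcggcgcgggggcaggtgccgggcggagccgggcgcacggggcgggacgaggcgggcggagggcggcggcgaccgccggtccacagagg
Acp5 (chr9:22130599-22130848, minus strand): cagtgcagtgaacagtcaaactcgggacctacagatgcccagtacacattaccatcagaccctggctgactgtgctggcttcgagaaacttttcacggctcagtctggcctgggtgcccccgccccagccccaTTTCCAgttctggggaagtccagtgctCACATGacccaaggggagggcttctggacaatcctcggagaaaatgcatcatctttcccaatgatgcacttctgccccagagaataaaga
Of the 8 windows of these 5 genes, only this Acp5 window held a match, to the NFAT core 117 bases and to the MITF E-box 90 bases before the start, both on the opposite strand and without overlap. Among all 32851 windows of the same length, 23.3% held the PU.1 core, 18.6% the NFAT core and 12.3% the MITF E-box. A match is only a run of letters, and its absence from these windows says nothing about the factors.

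Both ligands of CSF1R fell with LAMZ. Csf1 (ENSMUSG00000014599, chromosome 3, 107741048 to 107760469 on GRCm38) was the most abundant of the 10 genes. Its RPKM was 71.7 and 63.6 in the day 7 control libraries and 27.7 and 30.4 with LAMZ, and 76.6 and 91.1 in the day 14 control libraries and 55.3 and 55.9 with LAMZ. Each LAMZ library lay below each control library of its day. The log2 fold change was −1.19 at day 7 (SE 0.13, limma adjusted p = 0.00122) and −0.58 at day 14 (limma adjusted p = 0.0155). The day 14 call was lost without control replicate 2 (log2 fold change −0.45, limma adjusted p = 0.0877), without LAMZ replicate 1 (−0.57, limma adjusted p = 0.0762) and without LAMZ replicate 2 (−0.59, limma adjusted p = 0.0764), each of which leaves 1 library in its group, assumed to vary like the others. In the LAMZ culture, Csf1 rose from day 7 to day 14, from 29.0 ± 1.90 (SD, n = 2) to 55.6 ± 0.422 RPKM, a log2 fold change of 0.91 (limma adjusted p = 0.00437). In the control culture it went from 67.7 ± 5.68 to 83.8 ± 10.3 RPKM, which did not pass (limma adjusted p = 0.225), and it did after rescaling to equal sums (log2 fold change 0.56, limma adjusted p = 0.0387).

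Il34 (ENSMUSG00000031750, chromosome 8, 110741829 to 110805924), which encodes the other CSF1R ligand, overlaps 2 antisense genes, and the counting is not stated to use strand. Its RPKM was 14.5 and 15.0 in day 7 control and 3.47 and 5.19 with LAMZ. At day 14 it was 18.6 and 21.9 in control and 3.59 and 4.18 with LAMZ, that is, 196 and 194 reads against 41 and 40. The groups were far apart on both days, with log2 fold changes of −1.58 (SE 0.17, limma adjusted p = 0.00123) and −2.12 (limma adjusted p = 1.6e-04). Unlike Csf1, Il34 did not pass between the days in the LAMZ culture (4.33 ± 1.22 and 3.89 ± 0.420 RPKM, log2 fold change −0.11 with a 95% interval of −0.51 to 0.29, limma adjusted p = 0.709). Per 100 RPKM of Csf1, there were 24.3 and 24.0 RPKM of Il34 in the day 14 control libraries and 6.49 and 7.48 in the day 14 LAMZ libraries. At day 7 these values were 20.2 and 23.6 in control and 12.5 and 17.1 with LAMZ, so in each LAMZ library Csf1 made up a larger part of the pair than in the control libraries.

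RANKL mRNA passed at day 14 and OPG mRNA at day 7, and the difference of the LAMZ effect between the days passed for neither. Tnfsf11 (ENSMUSG00000022015, chromosome 14, 78277445 to 78308043), the RANKL gene, was at the limit of detection at day 7, with 2 and 2 reads in the control libraries and 2 and 5 with LAMZ (0.237, 0.258, 0.210 and 0.429 RPKM). A difference at day 7 was not detectable at this depth, and the ratio of LAMZ to control reads per mapped read was 1.34, with a 95% exact counting interval of 0.340 to 6.22. At day 14 it had 10 and 13 reads in control and 28 and 39 reads with LAMZ (0.833, 1.29, 2.15 and 3.57 RPKM). Both LAMZ libraries were above both control libraries. The gene reached the filter only through these LAMZ libraries, which by itself favours higher values in day 14 LAMZ. The log2 fold change at day 14 was 0.89 (SE 0.24, limma adjusted p = 0.0329), and the ratio of reads was 2.69 (counting interval 1.65 to 4.53, for counting error only). This call was close to the threshold. It was lost without control replicate 1 (log2 fold change 0.73, limma adjusted p = 0.144), without control replicate 2 (1.05, limma adjusted p = 0.0662) and without LAMZ replicate 2 (0.62, limma adjusted p = 0.224), as well as with a pseudocount of 0.1 (1.34, limma adjusted p = 0.0792), with no filter (0.89, limma adjusted p = 0.0859) and after rescaling to equal sums (0.68, limma adjusted p = 0.0521). With limma's voom on the recovered reads, a test chosen after the data were seen, the log2 fold change was 1.38 (adjusted p = 0.0208).

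From day 7 to day 14, Tnfsf11 rose in the LAMZ culture by a log2 fold change of 1.53 (limma adjusted p = 0.00684), with 67 reads against 7. The ratio of these reads per mapped read was 8.46 (counting interval 3.89 to 21.9). This call was lost without day 7 LAMZ replicate 1 (log2 fold change 1.41, limma adjusted p = 0.05003) and without day 14 LAMZ replicate 2 (1.26, limma adjusted p = 0.0644). In the control culture the reads went from 4 to 23, a ratio of 4.21 (counting interval 1.44 to 16.7), and the log2 fold change of 0.71 did not pass (limma adjusted p = 0.137). The LAMZ effect on Tnfsf11 at day 14 minus that at day 7 was 0.81 on the log2 scale and did not pass (limma adjusted p = 0.292). In order of level, Tnfsf11 was lowest in day 7 control and day 7 LAMZ, which overlapped, then day 14 control, then day 14 LAMZ.

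Tnfrsf11b (ENSMUSG00000063727, chromosome 15, 54250619 to 54278484), the OPG gene, was higher with LAMZ at day 7. Its RPKM was 11.7 and 9.53 in day 7 control and 28.2 and 25.4 with LAMZ (124 and 93 against 339 and 373 reads), a log2 fold change of 1.27 (SE 0.17, limma adjusted p = 0.00352). At day 14 it was 17.0 and 16.4 in control and 20.9 and 14.8 with LAMZ. The day 14 LAMZ libraries lay on either side of the control libraries, with a log2 fold change of 0.071 and a 95% interval of −0.33 to 0.47 (limma adjusted p = 0.801). The LAMZ effect at day 14 minus that at day 7 was −1.19 on the log2 scale, which did not pass (limma adjusted p = 0.0833), whereas with voom on the recovered reads it was −1.25 (adjusted p = 0.00825). From day 7 to day 14, OPG mRNA moved in opposite directions, from 10.6 ± 1.51 (SD, n = 2) to 16.7 ± 0.409 RPKM in control and from 26.8 ± 1.98 to 17.8 ± 4.37 with LAMZ, and neither passed (limma adjusted p = 0.0890 and 0.0632). With voom both passed (adjusted p = 0.0359 and 0.0109), as did the control change after rescaling to equal sums (limma adjusted p = 0.0205) and the LAMZ change without day 14 LAMZ replicate 1 (log2 fold change −0.82, limma adjusted p = 0.0403).

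**Figure D1:**
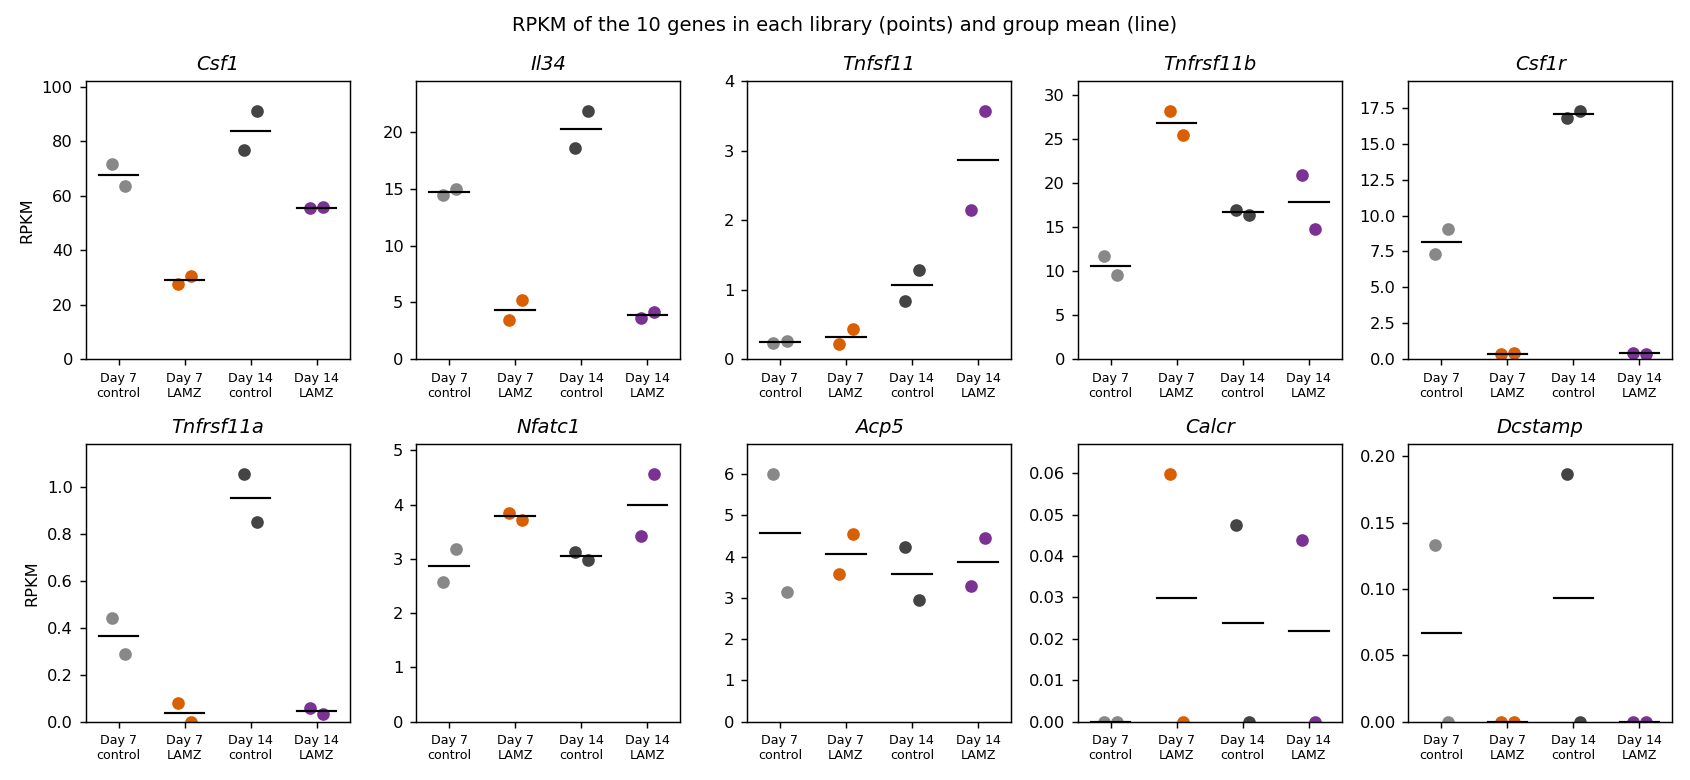
RPKM (vertical axis, starting at 0 and scaled per gene) of the 10 genes in the 2 libraries of each group (points) with the group mean (line). Csf1r and Il34 are low in all 4 LAMZ libraries, Tnfsf11 is highest in day 14 LAMZ, Tnfrsf11b is highest in day 7 LAMZ, and Acp5 has overlapping values in all groups.

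The RANKL to OPG ratio is given per library as Tnfsf11 RPKM per 100 RPKM of Tnfrsf11b, with a 95% exact interval for counting error only. At day 7 it was 2.03 (0.243 to 7.499) and 2.71 (0.323 to 10.1) in control and 0.744 (0.0897 to 2.71) and 1.69 (0.545 to 3.98) with LAMZ, and these intervals overlap. At day 14 it was 4.90 (2.32 to 9.17) and 7.84 (4.11 to 13.7) in control and 10.3 (6.72 to 15.1) and 24.2 (16.7 to 34.2) with LAMZ. Both day 14 LAMZ libraries had a higher ratio than the other 6 libraries. The interval of LAMZ replicate 1 overlapped both day 14 control intervals, that of LAMZ replicate 2 overlapped none, and the LAMZ replicates differed from each other by more than the counting error. The ratio is a description of 2 of the chosen genes and was not tested.

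**Figure D2:**
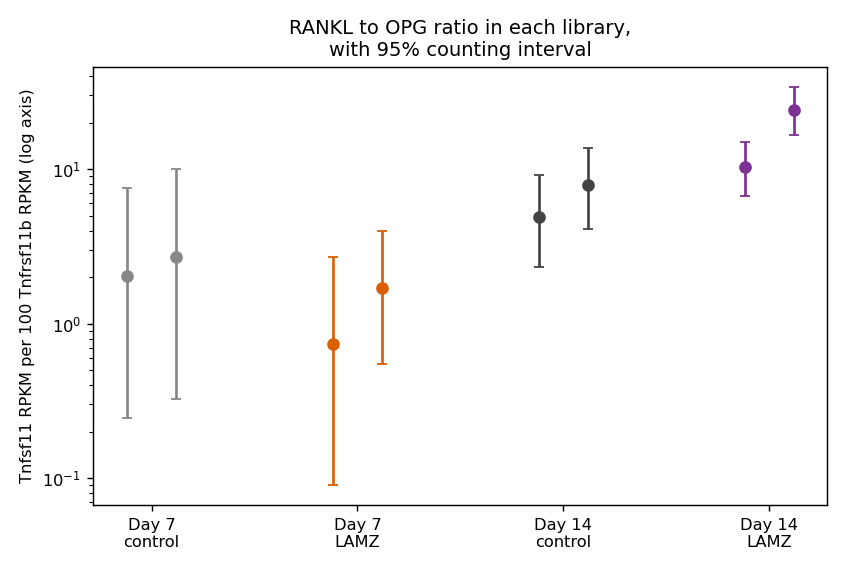
Tnfsf11 RPKM per 100 Tnfrsf11b RPKM on a log axis for each library, with bars for the 95% exact counting interval. The day 14 LAMZ libraries lie at 10.3 and 24.2, above the day 14 control libraries at 4.90 and 7.84, and the day 7 libraries lie between 0.744 and 2.71.

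The myeloid receptors fell with LAMZ. Csf1r, the receptor shared by CSF1 and IL-34, overlaps Hmgxb3 on the other strand. It had an RPKM of 7.33 and 9.04 in day 7 control and 0.336 and 0.393 with LAMZ, and of 16.8 and 17.3 in day 14 control and 0.421 and 0.377 with LAMZ. These are 135 and 153 against 7 and 10 reads, and 441 and 382 against 12 and 9 reads, with no overlap. The gene reached the filter only through the control libraries. On the log2(RPKM + 1) scale, which understates changes at low values, the log2 fold change was −2.74 at day 7 (SE 0.13, limma adjusted p = 5.1e-05) and −3.69 at day 14 (limma adjusted p = 4.6e-06). By reads per mapped read, control was 22.2 times LAMZ at day 7 (counting interval 13.6 to 38.6) and 42.5 times at day 14 (27.6 to 69.0). In the control culture Csf1r rose between the days, a log2 fold change of 0.98 (limma adjusted p = 0.0108). This call was lost without day 7 control replicate 1 (0.85, limma adjusted p = 0.0536), without day 14 control replicate 1 (1.00, limma adjusted p = 0.0804) and without day 14 control replicate 2 (0.96, limma adjusted p = 0.0630). With LAMZ the day 7 and day 14 values differed by a log2 fold change of 0.037 (95% interval −0.27 to 0.34). The difference of the LAMZ effect between the days was −0.94 and did not pass (limma adjusted p = 0.0741), and with a pseudocount of 5 it was −0.74 and did (limma adjusted p = 0.0320).

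Tnfrsf11a (ENSMUSG00000026321, chromosome 1, 105780718 to 105847981), the RANK gene, was too low for the filter. It had 10 and 6 reads in day 7 control against 2 and 0 with LAMZ, and 34 and 23 reads in day 14 control against 2 and 1 with LAMZ. In RPKM these were 0.443 and 0.289 against 0.0784 and 0, and 1.06 and 0.850 against 0.0573 and 0.0342. Every control library held more reads than every LAMZ library. Control was 10.5 times LAMZ at day 7 (counting interval 2.46 to 93.9) and 20.6 times at day 14 (6.70 to 103), and in control the day 14 level was 2.61 times that of day 7 (1.48 to 4.86). Without the filter, the day 14 log2 fold change was −0.90 (limma adjusted p = 0.0108) and the day 7 value −0.39 did not pass (limma adjusted p = 0.220). With voom on the recovered reads, both days passed, at −3.28 and −3.99 (adjusted p = 0.0283 and 8.8e-04). The gene entered that test only through control libraries, which by itself favours lower values with LAMZ.

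The level of both receptors moved with the macrophage markers. Relative to the mean of the day 14 control libraries, the summed RPKM of the 21 macrophage markers was 41.0% and 51.7% in day 7 control and 3.03% to 3.65% in the LAMZ libraries, Csf1r was at 43.0% and 53.0% and at 1.97% to 2.47%, and Tnfrsf11a was at 46.5% and 30.3% and at 0% to 8.21%. More than any other marker, Lyz2 made up the sum in control (312 to 789 RPKM), and Cyba made up most of it with LAMZ (28.0 to 37.8 RPKM). The part of the macrophage markers in the fall of these receptors, and of Csf1 and Il34, was not tested. In such bulk libraries, fewer cells of a type and less RNA per cell cannot be told apart. The 3 tested genes whose values followed Csf1r most closely over the 8 libraries were Mpeg1, C1qb and Laptm5 (Pearson's r = 0.999, 0.999 and 0.998), all of them in the macrophage list. For Csf1 they were Gm37233, Srxn1 and Jun (r = 0.993 to 0.985), for Il34 Fnbp1, Cmtm3 and Svep1 (0.994 to 0.993), for Tnfsf11 Repin1, Rgs3 and Fbln7 (0.989 to 0.978), for Tnfrsf11b Zfp395, Harbi1 and Fra10ac1 (0.957 to 0.951), for Nfatc1 Pwp2, Fstl4 and Sox8 (0.960 to 0.943) and for Acp5 Rpl36a-ps1, Gm16295 and Rbm45 (0.946 to 0.920). These correlations describe 8 libraries that share 4 groups.

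Of the 4 osteoclast genes, Acp5 and Nfatc1 were tested and neither passed, and Calcr and Dcstamp were too low to read. Acp5 (ENSMUSG00000001348, chromosome 9, 22126727 to 22135711), which encodes tartrate-resistant acid phosphatase and overlaps a transcript on the other strand, had an RPKM of 6.01 and 3.13 in day 7 control, 3.58 and 4.54 with LAMZ, 4.22 and 2.94 in day 14 control and 3.29 and 4.44 with LAMZ. All groups overlapped, with 22 to 48 reads per library. Its log2 fold changes were −0.095 (95% interval −0.71 to 0.52, limma adjusted p = 0.859) and 0.091 (−0.52 to 0.71, limma adjusted p = 0.835), and both signs turned under other scalings or without single libraries. In the LAMZ libraries, where the macrophage marker sum was at 3.03% to 3.65% of the day 14 control mean, Acp5 was at 92.0% to 127%. Nfatc1, the transcription factor that RANK signaling turns on in precursors, had an RPKM of 2.57 and 3.19 in day 7 control and 3.85 and 3.72 with LAMZ, and of 3.13 and 2.98 in day 14 control and 3.41 and 4.57 with LAMZ. The LAMZ libraries were above the control libraries on both days, but the log2 fold changes of 0.31 and 0.29 did not pass (95% intervals −0.043 to 0.66 and −0.059 to 0.64, limma adjusted p = 0.233 and 0.207). An antisense gene overlaps Nfatc1. The calcitonin receptor gene Calcr and Dcstamp, which is required for the fusion of osteoclast precursors, were barely detected. Calcr had 1 read in 1 library each of day 7 LAMZ, day 14 control and day 14 LAMZ, and Dcstamp had 1 and 2 reads in replicate 1 of day 7 and day 14 control. Neither reached the floor of 3 reads in any library, so no fold is given.

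**Figure D3:**
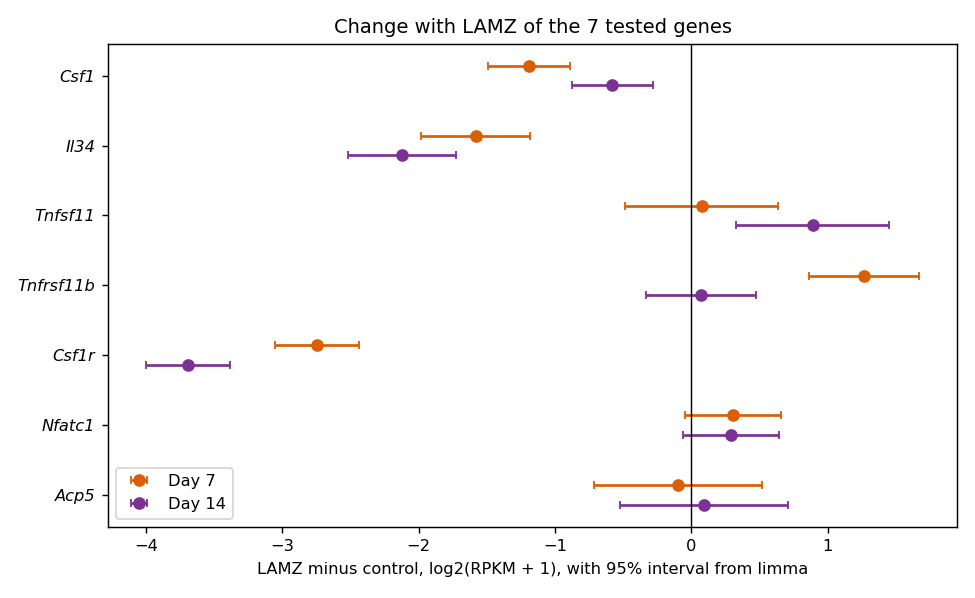
Log2 fold change of LAMZ against control (horizontal axis, log2(RPKM + 1)) of the 7 tested genes at day 7 and day 14, with 95% intervals from limma. Csf1, Il34 and Csf1r lie below 0 on both days, the interval of Tnfrsf11b lies above 0 at day 7 and that of Tnfsf11 at day 14, and the intervals of Nfatc1 and Acp5 include 0.

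**Figure D4:**
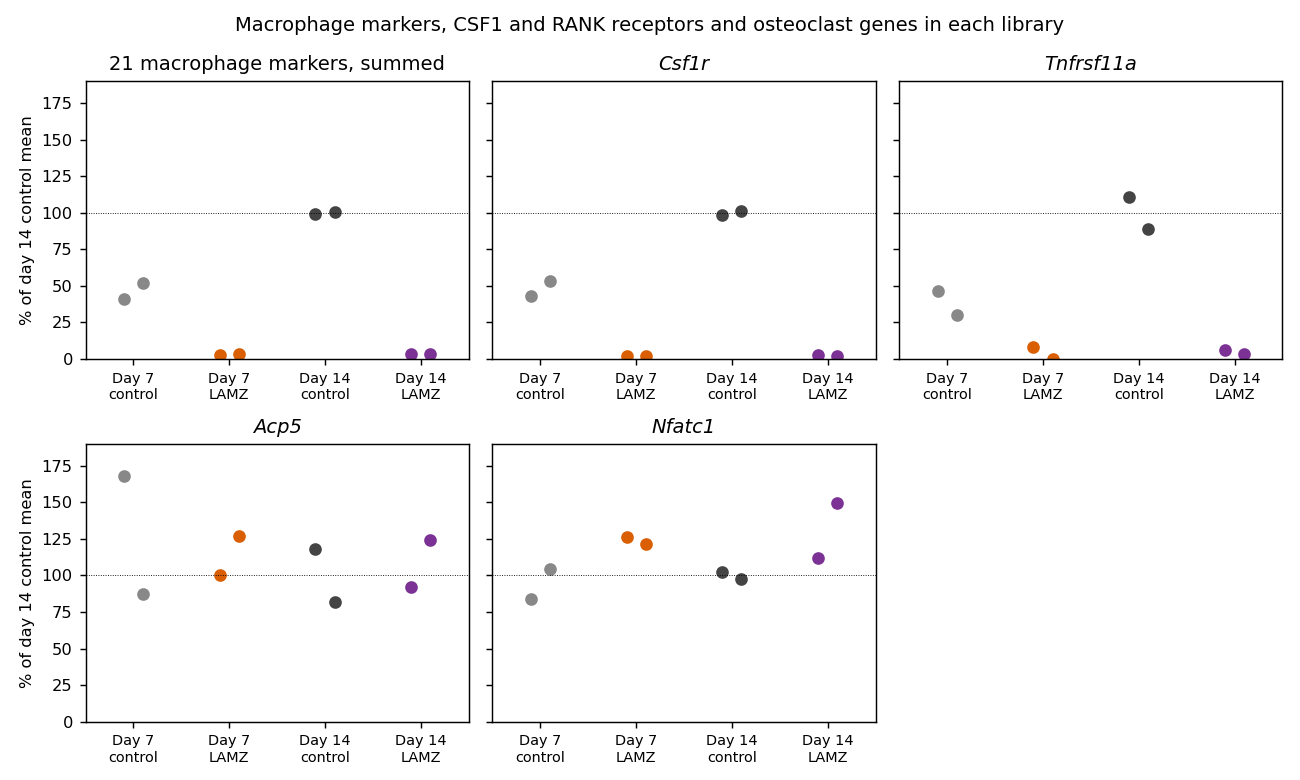
Level of the summed 21 macrophage markers, Csf1r, Tnfrsf11a, Acp5 and Nfatc1 in each library, as percent of the mean of the day 14 control libraries (dotted line at 100). The first 3 are at 8.21% or less in all LAMZ libraries, while Acp5 and Nfatc1 are at 92.0% or more there.

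The other genes of osteoclast resorption and fusion were read from a list of 19, of which 15 were tested. At day 7, 1 was higher and 3 lower with LAMZ, and at day 14, 3 were higher and 3 lower, with a median log2 fold change of −0.26 and −0.39 against −0.080 and −0.15 over all tested genes, of which 12.8% and 23.0% passed. The split depended on the scaling, and after rescaling to equal sums it was 1 higher and 7 lower at day 7 and 2 higher and 10 lower at day 14. With that scaling, 312 of all 12514 tested genes were higher and 3280 lower at day 7, and 473 higher and 5323 lower at day 14. Itgb3, the β3 chain of the osteoclast integrin αvβ3, rose from 7.55 and 7.44 to 14.4 and 14.6 RPKM at day 7 and from 6.85 and 7.68 to 15.4 and 17.1 RPKM at day 14 (log2 fold changes 0.87 and 1.06, limma adjusted p = 0.00291 and 6.3e-04). Its partner Itgav fell at day 14 (log2 fold change −0.80, limma adjusted p = 0.00305). Cd9, a tetraspanin, rose at day 14 (0.58, limma adjusted p = 0.0424), and Sh3pxd2a, a podosome scaffold, fell at day 14 (−0.41, limma adjusted p = 0.0354). The remaining genes named here were chosen after their values were seen. Mmp9, which encodes a gelatinase, rose at day 14 from 1.37 and 1.56 to 3.92 and 8.62 RPKM (log2 fold change 1.48, limma adjusted p = 0.00750), and its LAMZ libraries differed by more than the control libraries. Ctsk, the gene of cathepsin K, was at 85.0 to 119 RPKM in all 8 libraries and did not pass on either day (limma adjusted p = 0.679 and 0.539). Atp6v0d2, an osteoclast proton pump subunit needed for fusion, had 15 and 11 reads in day 14 control, 2 and 1 with LAMZ, and at most 1 at day 7. The proton pump subunit gene Tcirg1 fell at day 14 (log2 fold change −0.80, limma adjusted p = 0.00957), and Src, Slc4a2 and Clcn7 fell at day 7 (−0.77, −0.74 and −0.75, limma adjusted p = 0.0195, 0.0174 and 0.0187). Ocstamp, Oscar, Car2 and Siglec15 held at most 3 reads in any library.

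Among 17 transcription factors of osteoclast formation, 14 were tested, of which 1 was higher and 4 lower at day 7 and 1 was higher and 3 lower at day 14 (median log2 fold change −0.39 and −0.21), where 12.8% and 23.0% of all tested genes passed. After rescaling to equal sums, none was higher and 8 and 9 were lower, where 3280 and 5323 of all 12514 tested genes were lower. Spi1, which encodes PU.1, had 14 and 29 reads in day 7 control and 0 and 2 with LAMZ, and 94 and 49 reads in day 14 control and 0 in both LAMZ libraries. It was chosen after its values were seen, and it passed on both days (limma adjusted p = 0.0141 and 7.9e-04). Cebpa, a myeloid and adipocyte factor, fell (log2 fold changes −1.73 and −1.95, limma adjusted p = 0.00129 and 3.8e-04). Fosl2, an AP-1 factor active in osteoblasts too, rose (0.54 and 0.51, limma adjusted p = 0.0206 and 0.0153). Jdp2 fell at day 7 (−0.67, limma adjusted p = 0.0107) and Nfkb1 at day 14 (−0.69, limma adjusted p = 0.0163). Of 16 genes of ITAM co-stimulation, the second signal of osteoclast precursors, 10 were tested. Of these, 5 were lower at day 7 and 9 at day 14 with none higher (median log2 fold change −0.93 and −1.44). Over all tested genes, 8.49% and 16.0% were lower. Like Spi1, most of the 10 reached the filter only through control libraries, which by itself favours lower values. The share over all tested genes is therefore no fair standard for this count. The adaptor gene Tyrobp (DAP12) went from 17.5 and 28.6 RPKM at day 7 and 49.1 and 37.8 RPKM at day 14 in control to 0 in every LAMZ library, and Fcer1g from 10.0 to 34.2 RPKM in control to at most 0.469 with LAMZ. Trem2 and Plcg2 fell as well, Plcg2 at day 14 (−0.99, limma adjusted p = 0.00583) and Trem2 on both days (−1.61 and −2.93, limma adjusted p = 0.00210 and 6.9e-05). Spi1 and the ITAM genes moved with the macrophage markers, and the part of these in the result was not tested.

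The signal transducers downstream of RANK and CSF1R are for the most part expressed in many cell types. All 24 were tested, of which 1 was higher and 3 lower at day 7 and none was higher and 4 lower at day 14, where 8.49% and 16.0% of all tested genes were lower, with a median log2 fold change of −0.16 and −0.18. Nfkbia, the NF-κB inhibitor, fell (−0.74 and −1.02, limma adjusted p = 0.0101 and 0.00137), as did Pik3r1, a PI3-kinase subunit (−0.78 and −1.09, limma adjusted p = 0.00900 and 0.00117). Grb2 fell at day 14 (−0.62, limma adjusted p = 0.00904), and Tab2 rose at day 7 (0.69, limma adjusted p = 0.0134). Traf6, the main adaptor of RANK, was at 1.40 to 2.01 RPKM and did not pass on either day (limma adjusted p = 0.889 and 0.641). These counts depended on the scaling. After rescaling to equal sums, none was higher and 12 and 14 were lower (median −0.44 and −0.42). That scaling called 3280 and 5323 of all 12514 tested genes lower, with medians of −0.31 and −0.43, so much of the shift was shared by all genes. After centring on the median, 1 and 2 were higher and 2 and 4 lower (median −0.049 and 0.015). Of all tested genes, 857 and 1608 were then higher and 745 and 1249 lower.

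Other stromal genes that act on osteoclast formation were read from a further list. Of 34 listed genes, 28 were tested, and 4 were higher and 14 lower at day 7 and 7 higher and 16 lower at day 14 (median log2 fold change −0.36 and −0.53), against 4.35% higher and 8.49% lower, and 6.96% higher and 16.0% lower, over all tested genes. After centring on the median, these counts were 5 and 13, and 8 and 12. Of all 12514 tested genes, 857 were then higher and 745 lower at day 7, and 1608 higher and 1249 lower at day 14. Ccl2 and Ccl7 reached the filter only through control libraries and Ptgs2 only through LAMZ libraries. This by itself favours the direction found, so for these genes the share over all tested genes is no fair standard. Pth1r, the parathyroid hormone receptor that raises RANKL in osteoblasts, rose from 45.5 and 54.5 to 138.1 and 104.7 RPKM at day 7 and from 61.1 and 76.3 to 217.5 and 245.2 RPKM at day 14 (log2 fold changes 1.25 and 1.74, limma adjusted p = 0.00428 and 5.0e-04). Mmp13, a collagenase of osteoblasts, rose at day 14 (1.28, limma adjusted p = 0.00520). Sfrp1, a Wnt antagonist, fell from 111.4 and 78.7 to 9.92 and 11.9 RPKM at day 7 and from 111.0 and 107.3 to 1.65 and 2.296 RPKM at day 14 (−2.99 and −5.22, limma adjusted p = 1.2e-04 and 4.6e-06). Tnfrsf1a, the main TNF receptor, fell (−0.63 and −0.45, limma adjusted p = 0.00817 and 0.0188). The following genes were chosen after their values were seen. Vdr, the vitamin D receptor, rose at day 14 from 6.16 and 6.22 to 12.2 and 18.2 RPKM (1.15, limma adjusted p = 0.00577). Ptgs2, the inducible prostaglandin synthase, rose from 0.579 and 0.504 to 3.79 and 3.94 RPKM at day 7 and from 0.773 and 1.74 to 7.79 and 7.96 RPKM at day 14 (1.66 and 2.01, limma adjusted p = 0.00199 and 4.0e-04). Cxcl12, a chemokine of stromal cells that attracts precursors, fell (−1.90 and −2.88, limma adjusted p = 1.9e-04 and 1.4e-05), and so did the monocyte chemokine gene Ccl2, from 7.22 to 12.4 RPKM in control to at most 0.206 RPKM with LAMZ. Macrophages express Ccl2 and Ccl7 too, and the macrophage marker sum was at 3.03% to 3.65% of the day 14 control mean in the same LAMZ libraries. The part of the macrophage markers in the falls in this list was not tested. Il6 and Il11 held at most 2 reads in any library.

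**Figure D5:**
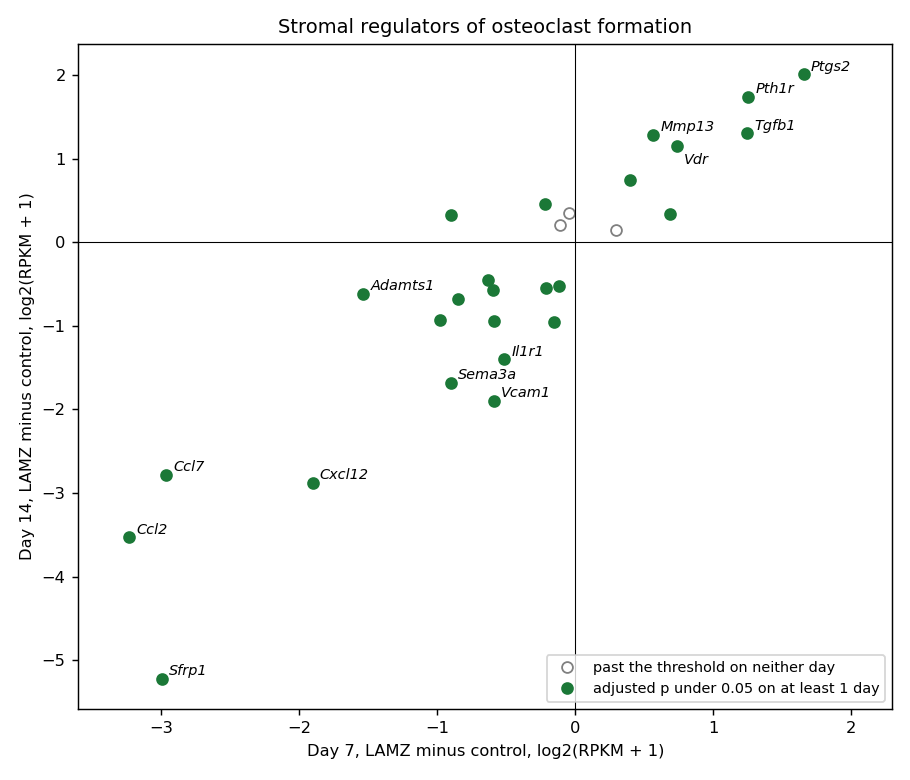
Log2 fold change with LAMZ at day 7 (horizontal axis) and day 14 (vertical axis) of the 28 tested stromal regulators of osteoclast formation, on log2(RPKM + 1). Filled points passed an adjusted p of 0.05 on at least 1 day (25 genes), and genes changed by more than 1 on either day are named, with Ptgs2 and Pth1r at the upper right and Sfrp1, Ccl2, Ccl7 and Cxcl12 at the lower left.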

How the data were processed

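The authors sequenced total RNA on an Ion Proton, analysed the reads with CLC Genomics Workbench (version not given in the sources used here) and deposited an RPKM value per gene symbol and library, on mm10 per the labels. The value column of day 7 LAMZ replicate 1 carries a header unlike the others, which does not name LAMZ, and was assigned by the sample it was deposited under. Library preparation and strand are not given in the sources used here. Of 51826 entries per file, 4 with repeated symbols turned into dates were dropped. Gene lengths and positions came from GENCODE M21 (GRCm38), which matched 47465 symbols.

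Mapped reads per library were set to the total at which low values of single-exon genes became whole reads, within 0.01 reads for 95.7% to 97.4% of 768 to 1440 values per library. Reads of the 10 genes then came out whole with the exon length of the annotation or, for Csf1r, Nfatc1 and Dcstamp, with the length that made all values whole. Reads from PCR are not independent molecules, so intervals and the floor of 3 reads cover counting error only.

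Values as log2(RPKM + 1) were fitted in limma 3.58.1 (R 4.3.3) by lmFit and by eBayes with its trend option. The 4 groups shared the fit, which had no other terms and left 4 residual degrees of freedom. LAMZ was set against control on each day, day 14 against day 7 in each culture, and the LAMZ effects of the days against each other. Benjamini-Hochberg adjustment ran over 12514 genes. The scripts were tested on simulated data. Of the other list genes, the text names up to 4 per list, those with the highest mean RPKM among the genes called on either day, unless it says otherwise. Bglap, Col1a2, Sost and Traf6, which passed on neither day, and Mepe were named outside this rule. The 10 genes and the lists were chosen with earlier results of these data known. The alternatives were pseudocounts of 0.1 and 5, no filter, 3 scalings, a replicate block, each library left out and, added later, voom on the reads of 12661 genes with at least 10 reads in at least 2 libraries.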

Additional observations from a re-analysis of the deposited data

How the results depend on the processing

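With 2 libraries per group, calls lean on a spread estimated jointly over genes, and an RPKM near 1 stands for few reads. Over the 16 alternatives, Il34, Csf1r on both days, Csf1 and Tnfrsf11b at day 7 kept their direction and passed in all 16. Csf1 at day 14 passed in 13 and Tnfsf11 at day 14 in 10, both with the same direction throughout. The causes were not tested.

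The count of genes called at day 7 was 1607, and 951 with no filter and 3592 after rescaling to equal sums. At day 14 it was 2878, and 5796 after rescaling to equal sums. Between the days in control it was 608, and 203 with no filter, 1135 after rescaling to equal sums and 1126 with voom. Between the days with LAMZ it was 1797, and 1091 with no filter and 2911 with voom. For the difference of the LAMZ effect it was 78, and 34 with a pseudocount of 0.1, 166 with a pseudocount of 5, 413 with voom and 0 in limma with no filter (2931 genes had an unadjusted p under 0.05 there). Leaving out each library in turn gave 527 to 1383 genes at day 7, 1512 to 3087 at day 14, 69 to 453 between the days in control, 488 to 1890 with LAMZ and 0 to 21 for the difference.

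No shared deviation of same-numbered libraries was seen within a day, with a correlation of −0.0166 at day 7 and 0.0158 at day 14. With 2 libraries per group this cannot show that the libraries are unpaired, and pairing across the days was not checked. With the replicate number as a block, 17 genes passed for the difference of the LAMZ effect, and among the 10 genes the fall of Tnfrsf11b between the days with LAMZ passed (limma adjusted p = 0.0398). It changed no other call of these genes.

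Directions turned only in changes that did not pass. After rescaling to equal sums, the log2 fold change of Tnfrsf11b at day 14 was −0.27, of Acp5 at day 14 −0.20, and between the days with LAMZ 0.050 for Il34 and 0.098 for Acp5. After centring on the median it was 0.018 for Acp5 at day 7, 0.043 for Acp5 between the days with LAMZ and 0.061 for the difference of the LAMZ effect of Nfatc1. After quantile normalization these were 0.028, 0.048 and 0.073, and 0.0015 for Il34 between the days with LAMZ. Leaving out each library gave Acp5 −0.48 to 0.29 at day 7, −0.11 to 0.29 at day 14, −0.63 to 0.14 between the days in control, −0.23 to 0.11 with LAMZ and −0.20 to 0.57 for the difference. It gave Nfatc1 −0.046 to 0.18 in control, −0.12 to 0.22 with LAMZ and −0.18 to 0.15 for the difference. It gave Il34 −0.34 to 0.13 between the days with LAMZ, Tnfsf11 −0.045 to 0.20 at day 7 and Tnfrsf11b −0.17 to 0.31 at day 14.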

Other observations

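Markers of other cell types that bone cultures can hold were read from lists. Of 13 osteoblast and osteocyte markers, all tested, 7 were higher with LAMZ at day 7 and 8 at day 14 with none lower (median log2 fold change 0.80 and 1.04), against 4.35% and 6.96% higher over all tested genes. Ibsp, the gene of bone sialoprotein, rose by 1.48 and 2.55 (limma adjusted p = 5.9e-04 and 2.4e-05) and Alpl, alkaline phosphatase, by 1.97 and 2.16 (limma adjusted p = 0.00203 and 7.1e-04). Spp1 rose by 3.23 and 2.99 (limma adjusted p = 0.00139 and 0.00108), and Col1a1 passed only at day 14 (0.55, limma adjusted p = 0.0460). Some of the 13 passed on neither day, among them Bglap (log2 fold changes 0.66 and −0.14), Col1a2 (−0.061 and 0.39) and Sost (−0.64 and 1.04). Mepe, which passed at day 14, reached the filter only through LAMZ libraries, which by itself favours higher values. A link of the Tnfsf11 rise at day 14 to the osteoblast and osteocyte markers was not tested. Of 22 macrophage markers, 20 were tested, and 15 were lower at day 7 and 19 at day 14. Over all tested genes, 8.49% and 16.0% were lower. Apart from Lyz2 and Cyba, the tested markers reached the filter only through control libraries, which by itself favours lower values. The share over all tested genes is therefore no fair standard for this count. Cyba passed at day 14 (log2 fold change −0.69, limma adjusted p = 0.0147) and not at day 7.

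Of 7 adipocyte markers, 5 were tested, and 2 were lower with LAMZ at day 7 and 4 at day 14. The background was the same 8.49% and 16.0%, but Fabp4 and Adipoq reached the filter only through control libraries. Lpl, lipoprotein lipase, fell by 1.89 and 2.71 on the log2 scale (limma adjusted p = 1.3e-04 and 1.0e-05). Fabp4 was uneven between the day 14 control replicates, at 6.44 and 41.2 RPKM, and so was Adipoq, at 2.43 and 11.7 RPKM, whereas Csf1r in these libraries was at 16.8 and 17.3 RPKM. Of 7 endothelial markers, only Tek was tested, and it was lower on both days (log2 fold changes −1.14 and −0.91, limma adjusted p = 0.0153 and 0.0217). Tek too reached the filter only through control libraries. None of the 8 lymphocyte markers was tested, and their summed RPKM was at most 3.28 in any library.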
